A study of Drosophila melanogaster with 5 samples.

Results

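LINEs of the I, Doc, jockey and F type are non-LTR retrotransposons, mobile elements that multiply through an RNA copy. The deposited annotation of transposable element (TE) copies names the family of each copy, and copies were taken where that family was the I-element, Ivk, a Doc, F, Fw, jockey, G, X or BS element, Juan, Helena or baggins. This gave 1859 of 20953 annotated copies, which belonged to 26 of 166 families. The copies were 101 to 13687 bp long, with a median of 812 bp, and 359 of them overlapped another TE copy. Copies that carry the name of another species' element, 11 of Helena and 18 of the I-element, were not taken.

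A complete element of this kind starts at its 5′ end with a promoter that lies inside the transcribed sequence, and most encode a nucleic acid binding protein and a protein with endonuclease and reverse transcriptase activity. The enzyme copies the RNA into the chromosome from the 3′ end and often stops early, so that most inserted copies lack the 5′ part and with it the promoter. In the fly germline the piRNA pathway, in which small RNAs guide Piwi-family proteins to transposon transcripts, silences these elements, and the I-element is known for the sterility (hybrid dysgenesis) that follows when a male carrying it is crossed to a female lacking it.

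The study examined transcription from TEs in polyadenylated RNA of Drosophila melanogaster with 5 libraries, each a group of its own. From iso1a, 20 ovaries with 5 µg of RNA per library, came 2 stranded CAGE libraries, which read the 5′ ends of capped transcripts. One was pyrosequenced and labelled normalization yes, the other was sequenced on Solexa and labelled normalization no. Whole bodies of the lines Rev, IR6 and iso1a gave 3 unstranded libraries from pools of 10 males under 24 h old and 10 females of 0 to 3 days, of which iso1a alone was labelled normalization yes. The labels name the lines and give no allele or transgene. With 1 library a group no difference had a replicate check and no p-value was computed. Ratios below are log2 values of counts per 1000000 gene counts (CPM), each with an exact 95% interval that covers counting error only.

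Gene counts summed to 109980 in the pyrosequenced library and 2813522 in the Solexa library, and to 11685814, 9633168 and 4379746 in the Rev, IR6 and iso1a bodies, where 3 counts stood for 27.3, 1.07, 0.257, 0.311 and 0.685 CPM. Of 13 ovary markers 12 were detected in each ovary library and 13 in each body, and their summed level was 118085 and 92908 CPM in the ovaries, and 20112, 21195 and 2170 CPM in the Rev, IR6 and iso1a bodies. All 7 accessory gland markers were at 0 in the ovary libraries and summed to 503, 656 and 1617 CPM in Rev, IR6 and the iso1a body. The 6 testis markers summed to 572, 702 and 816 CPM and the 6 head and eye markers to 1653, 3182 and 925 CPM in the same bodies, with 1 testis marker in the pyrosequenced library and 1 head and eye marker in the Solexa library above 0. The 6 muscle markers summed to 8026, 6593 and 7648 CPM, and 3 of them were above 0 in each ovary library. The iso1a body thus stood apart from the other bodies in ovary and accessory gland markers, and their part in the differences below was not tested. The head and eye markers differed between all 3 bodies, Rev and IR6 included. In these bulk samples, fewer cells of a type and less RNA per cell cannot be told apart. For the iso1a body the normalization label differs as well, and its part in the marker levels was not tested.

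The LINE copies held 7 counts in the pyrosequenced library, 120 in the Solexa library, while the bodies of Rev, IR6 and iso1a held 5555, 3761 and 3004. This came to 63.6 CPM (95% Poisson interval 25.6 to 131), 42.7 (35.4 to 51.0), 475 (463 to 488), 390 (378 to 403) and 686 (662 to 711) in the same order. They were a small part of TE counts, 1.82%, 1.59%, 1.99%, 1.42% and 0.0516%. The last share stood beside a far larger sum over all TE copies, 5820698 counts in the iso1a body against 278903 in Rev and 264154 in IR6. Counts fell on 6, 9, 366, 323 and 325 copies, and 1236 of the 1859 copies had none in any library. The body libraries keep no strand, so transcripts that start in an element and transcripts of the surrounding DNA that run through it cannot be told apart.

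**Figure D1:**
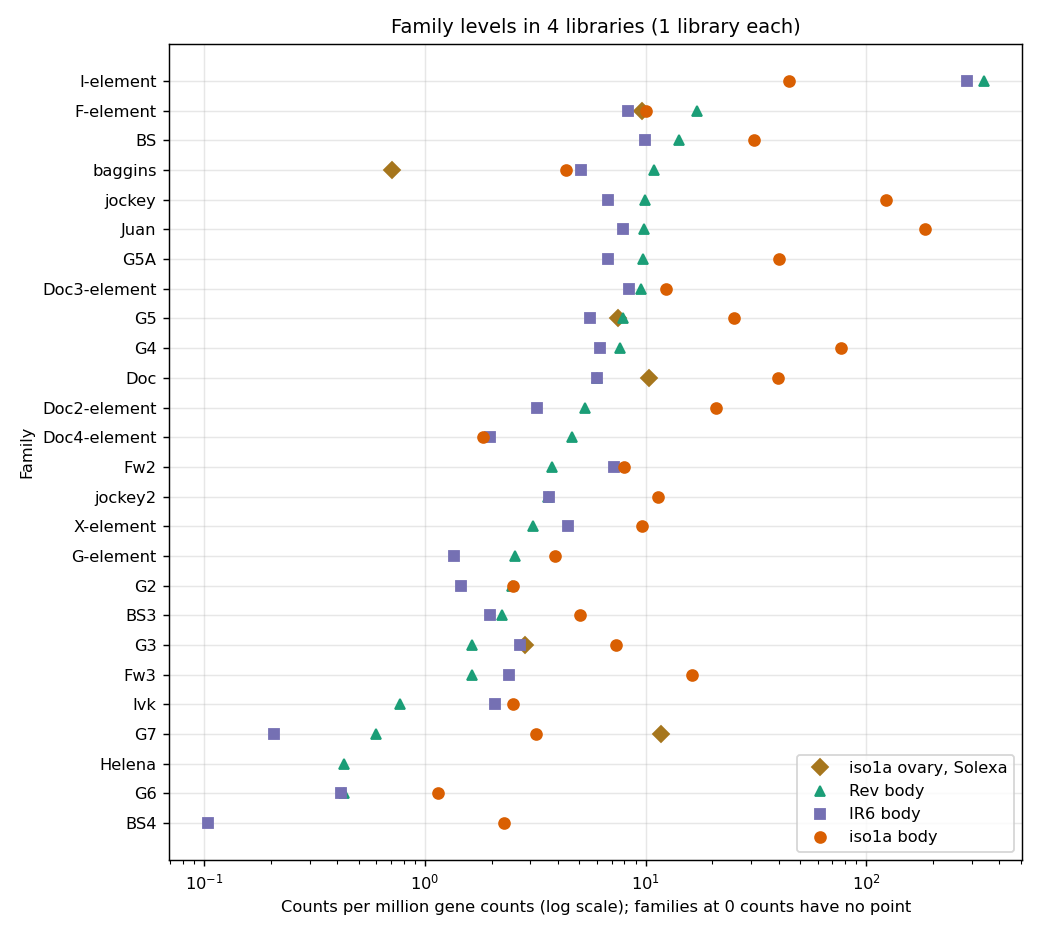
Level of each LINE family in the Solexa ovary library and the 3 whole-body libraries, in CPM on a log scale, with 1 point for each library in which the family had counts. The I-element stands at 340 CPM in Rev and 286 CPM in IR6, above every other family there, while Juan and jockey lead in the iso1a body at 184 and 122 CPM.

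The I-element, an element of the I type that is intact in some strains and only present as old remnants in others, was the family with the most counts in Rev and IR6. Its counts were 3969, 2758 and 195 in the Rev, IR6 and iso1a bodies, or 340, 286 and 44.5 CPM. In Rev and IR6 almost all of this came from a pair of short fragments on chromosome X. The first, at 1449434 to 1449858 on the minus strand (425 bp), carries bases 1082 to 1492 of the element and held 2147, 1318 and 4 counts in Rev, IR6 and the iso1a body. The second, at 1449923 to 1450454 on the same strand (532 bp), carries bases 990 to 1510 and held 1664, 1302 and 2 counts. The fragments lie 64 bp apart, share 411 bases of the element, overlap no other TE copy and include neither end of the element. In the ovary the first held 1 count in the pyrosequenced library and the second none, and both were at 0 in the Solexa library.

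At the pair the summed level was 326, 272 and 1.37 CPM in the bodies of Rev, IR6 and iso1a. The fragments held 3811 of the 3969 I-element counts of Rev and 2620 of the 2758 of IR6 but 6 of the 195 of the iso1a body, and 68.6%, 69.7% and 0.200% of the counts of all LINE copies. The iso1a body stood at a log2 ratio of -7.78 to Rev and -7.52 to IR6 at the pair, and the fragments had the lowest ratios of the 14 LINE copies that could be compared. Without the pair the I-element held 158, 138 and 189 counts, and the direction of the family turned. Its log2 ratio of the iso1a body was -2.93 (-3.15 to -2.72) to Rev and -2.68 (-2.90 to -2.47) to IR6 with the pair, and 1.67 and 1.59 without it. The lower level of the I-element in iso1a thus rested on these fragments.

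The other I-element copies that could be compared singly did not share the pattern of the pair. A copy on 3R at 6081017 to 6083117 (minus strand, 2101 bp, element bases 7 to 2089) held 84, 70 and 45 counts in Rev, IR6 and the iso1a body, with log2 ratios of iso1a of 0.52 (-0.04 to 1.05) and 0.51 (-0.07 to 1.06), within 2-fold of both. A copy on 2R at 2155696 to 2156747 (plus strand, element bases 4663 to 5371) held 7, 12 and 94 counts, 5.07 (4.06 to 6.52) above Rev and 4.06 (3.23 to 5.11) above IR6 on the log2 scale. That copy reached the minimum of 50 counts only through iso1a, so its direction was set by the choice and its values are a description. It reaches the 3′ end and overlaps another TE copy. The longest I-element copy on the genome, 13687 bp on unplaced sequence, spans 5371 bases of the element and held no counts in any library. Ivk, a related family of 34 copies, held 9, 20 and 11 counts in the 3 bodies and was too low to compare under the minimum given below.

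**Figure D2:**
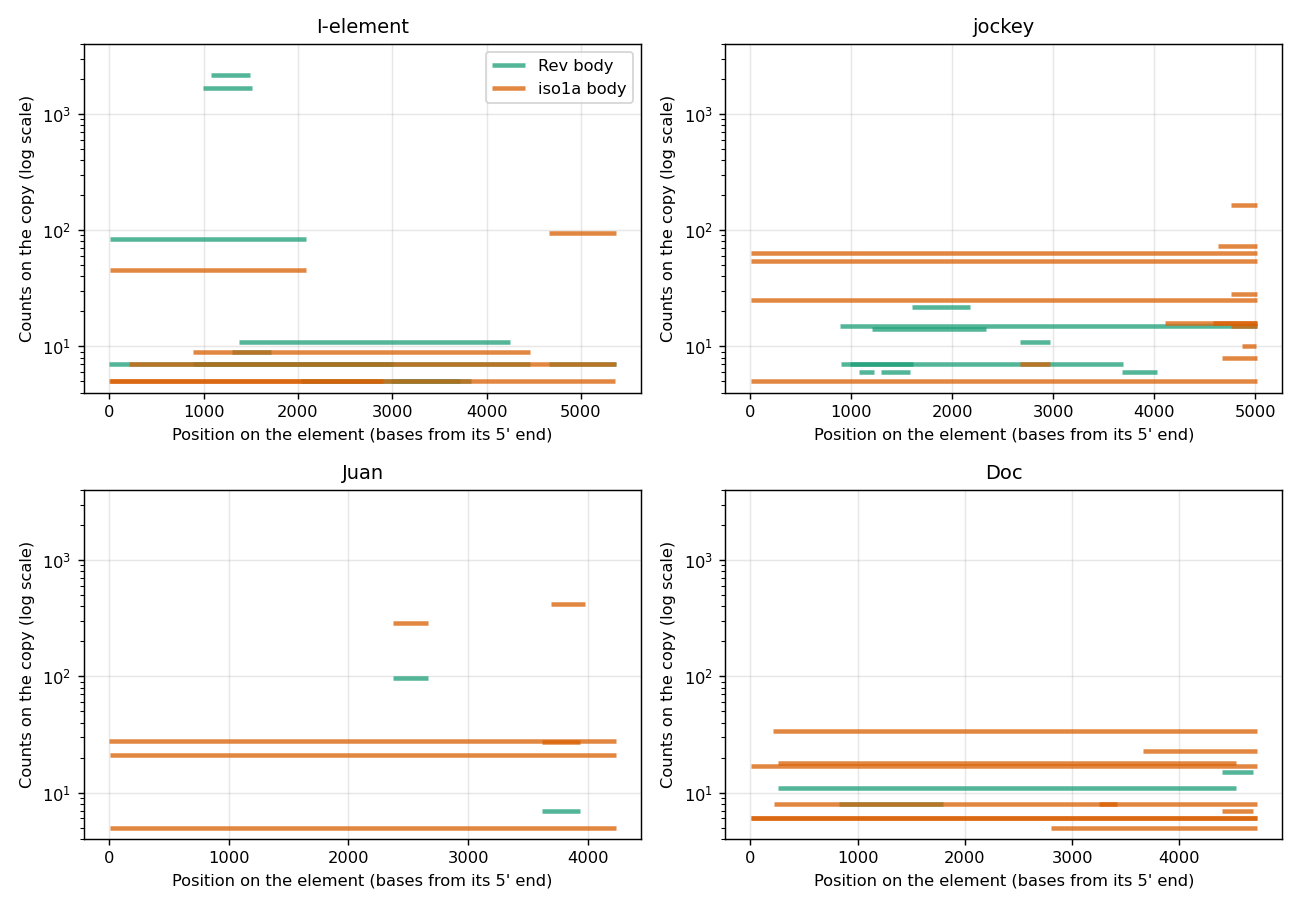
Place on the element (bases from its 5′ end) of each copy of the I-element, jockey, Juan and Doc with at least 5 counts in Rev or in the iso1a body, with its counts on a log scale; each bar is 1 copy in 1 library. The X fragments are the 2 bars at the top of the I-element panel in Rev, and the jockey bars of the iso1a body reach the 3′ end except for 1 short bar, while most of those of Rev do not.

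Families were ordered by CPM per kb of annotated copies, since their copies add up to different lengths. The I-element led in Rev at 1.72 CPM per kb and in IR6 at 1.45, followed by G5A at 0.266 and 0.186. The X pair held 326 of the 340 CPM of the I-element in Rev and 272 of the 286 in IR6, so this lead rested on the pair. In the iso1a body Juan led at 3.63, ahead of BS4 at 3.05, G4 at 1.14 and G5A at 1.10, while the I-element was 13th of 26 at 0.226. BS4 is 1 copy with 0, 1 and 10 counts, so its place rests on few reads. The F-element and Doc, the families with the most copies (258 and 180), stood at 0.0335 and 0.0142 CPM per kb in Rev, 19th and 24th of 26, and at 0.0196 and 0.0943 in iso1a, 24th and 16th.

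The first comparison set Rev against IR6, bodies of the same assay, ages and normalization label. The LINE copies as a whole were 0.28 (0.22 to 0.34) higher in Rev on the log2 scale, and 0.33 (0.22 to 0.44) without the X pair, under 2-fold. Other TE copies were at -0.21, and at 0.15 without the copies on unplaced sequence. Families and copies with at least 50 counts in both libraries together were compared, and a difference of 2-fold or more was called.

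Of 16 families that could be compared, 3 passed as higher in Rev and 0 as lower, where 6.54% of all 107 TE families compared were higher and 0.935% lower. The median log2 ratio was 0.40 over these LINE families and 0.16 over all TE families. The F-element held 200 and 80 counts, a ratio of 1.04 (0.66 to 1.44). For baggins the counts were 127 and 49, a ratio of 1.09 (0.61 to 1.60). Doc4 had 54 and 19 counts, a ratio of 1.20 (0.45 to 2.07). All 3 intervals reached below 2-fold, so that counting error alone left the calls uncertain, and the calls of the F-element and baggins were lost when libraries were scaled by TMM factors (0.95 and 1.00) or median-ratio factors (0.92 and 0.97). Without its copy with the most counts, baggins stood at 0.73. Doc4 copies that overlap another TE copy held 54 of the 73 Doc4 counts in both libraries. Without them the ratio was 1.96, on 16 and 3 counts, which were under the minimum and too few to compare.

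The other families differed by less than 2-fold. The I-element was at 0.25 (0.18 to 0.32) with the X pair and -0.08 (-0.42 to 0.26) without it. Among the Doc elements, 1 of 4 families was higher and the other 3 were within 2-fold. Neither jockey nor jockey2 passed in either direction, nor did the 3 G families, BS, the X-element and Juan that had enough counts. In the F group Fw2 was at -0.92 (-1.51 to -0.36), the lowest of the 16, and passed as lower with TMM or median-ratio factors, which lower each ratio of Rev to IR6 by 0.09 and 0.11. Fw3 had too few counts. The 10 families under the minimum were Ivk, Fw3, the G-element, G2, G3, G6, G7, BS3, BS4 and Helena. Of these, BS3 (26 and 19 counts in Rev and IR6) and G3 (19 and 26) came closest to it. Helena, with 6 copies, held 5 counts in Rev and 0 elsewhere.

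Copy by copy, 8 LINE copies could be compared, of which 0 passed as higher in Rev and 1 as lower, beside 11.6% higher and 4.82% lower among 767 TE copies. The lower copy was an Fw2 element of 10182 bp at 3LHet 1211337 to 1221518 on the minus strand, which overlaps another TE copy. Its 22 counts in Rev stood against 38 in IR6, a log2 ratio of -1.05 (-1.90 to -0.27). A Doc3 copy that spans nearly the whole element, at 3RHet 1945820 to 1950219, held 46 and 21 counts, the highest ratio of the 8 at 0.83 (0.08 to 1.67). The median over the 8 copies was 0.18, and 0.15 over all TE copies compared. With a minimum of 20 counts 28 LINE copies could be compared, of which 9 were higher and 3 lower, beside 15.4% higher and 6.36% lower among 1305 TE copies. The counts of calls thus depend on the minimum.

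Genes of the piRNA pathway were set beside this comparison, since the pathway acts on these elements. Of 33 genes listed 32 were matched and 31 had enough counts. Of these 1 passed as higher in Rev and 0 as lower, among 10300 genes of which 4.34% were higher and 3.47% lower. The gene, named here after its value was seen, was armi, an RNA helicase of piRNA biogenesis, with 266 counts in Rev and 102 in IR6 and a log2 ratio of 1.10. With median-ratio factors it no longer passed. The median of the list was 0.29 and that of all genes 0.10.

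**Figure D3:**
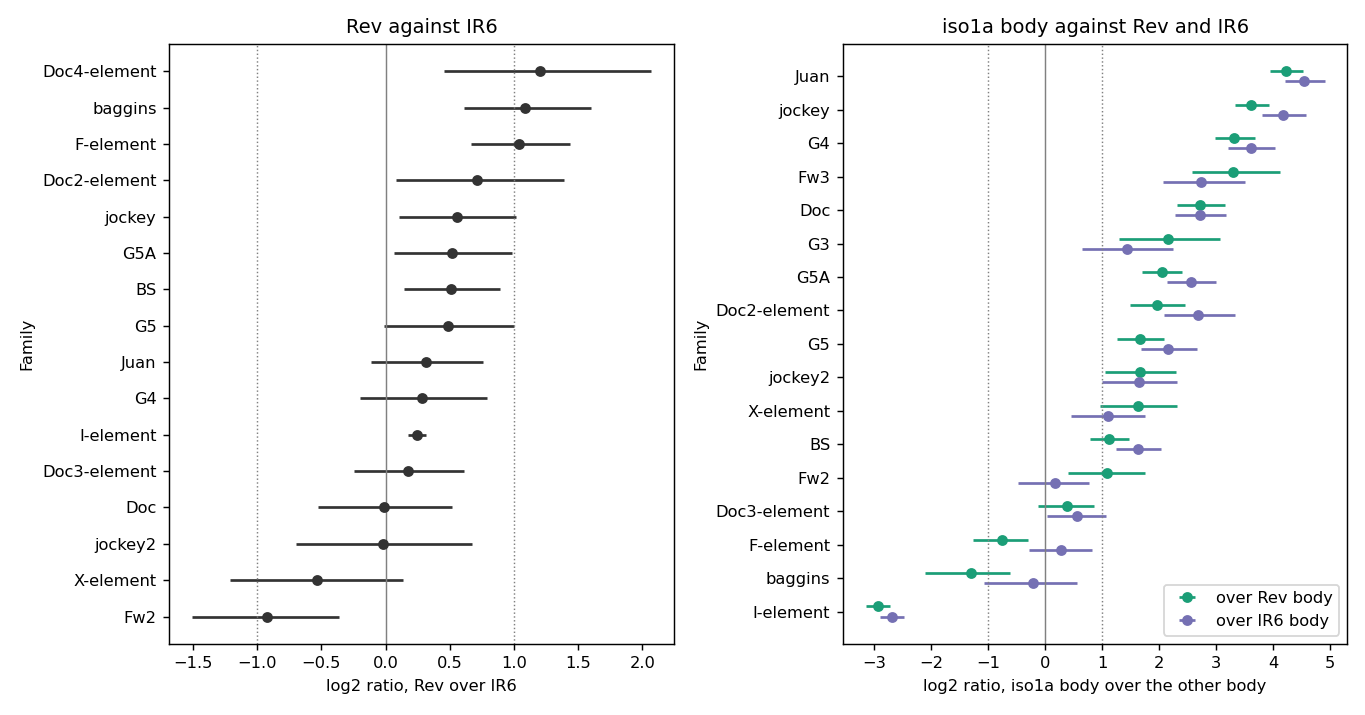
Log2 ratios of LINE families with at least 50 counts, Rev over IR6 and the iso1a body over each of the other bodies, with exact 95% intervals of counting error; dotted lines mark 2-fold. Rev and IR6 lie within or near 2-fold of each other for all families, while in iso1a 12 families lie above 2-fold against both and the I-element lies below.

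The second comparison set the iso1a body against Rev and IR6, and a difference was called where it was at least 2-fold in the same direction against both. The line and the normalization label differ together here and cannot be told apart. All LINE copies together were 0.53 and 0.81 higher in iso1a on the log2 scale, and 2.20 and 2.53 higher without the X pair, where the summed level was 149 CPM in Rev, 118 in IR6 and 685 in iso1a. Other TE copies were 5.83 and 5.62 higher, and 3.00 and 3.15 higher without unplaced sequence. TMM scaling lowers each ratio of iso1a to Rev by 0.49 and to IR6 by 0.58, and median-ratio scaling by 0.42 and 0.53.

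Of 17 LINE families that could be compared, 12 were higher in iso1a, 1 was lower and 4 did not pass against both bodies. Among all 115 TE families compared 85.2% were higher and 4.35% lower, so most TE families shared this direction. The median ratio of the 17 families was 1.67 to Rev and 1.65 to IR6, below the 2.90 and 3.00 of all TE families. By group, the higher families were 2 of 3 Doc families compared, 2 of 2 jockey, 1 of 3 of the F group, 4 of 4 G families, and BS, the X-element and Juan. Doc3, at 0.38 (-0.12 to 0.86) and 0.56 (0.03 to 1.07), the F-element, Fw2 and baggins did not pass. The counts of Fw3 and G3 reached the minimum only through iso1a, so their direction was set by the choice. With TMM or median-ratio scaling BS, G3 and the X-element no longer passed, and Doc2 and the X-element did not pass without their copy with the most counts.

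Juan, an element of the jockey group with 27 copies here, had the highest ratio of a family. Its counts were 115, 76 and 807 in the Rev, IR6 and iso1a bodies, 4.22 (3.94 to 4.52) above Rev and 4.54 (4.21 to 4.90) above IR6 on the log2 scale. Per kb of annotated copies Juan was also the highest LINE family in iso1a, at 3.63 CPM per kb, against 0.194 in Rev and 0.155 in IR6. A pair of fragments carried most of it. The fragment on chromosome 4 at 134177 to 134454 (plus strand, 278 bp, element bases 3695 to 3980) held 4, 3 and 420 counts, 7.96 (6.76 to 10.01) above Rev and 8.05 (6.71 to 10.55) above IR6. The fragment on 2L at 17404355 to 17404653 (plus strand, 299 bp, bases 2370 to 2669) held 97, 67 and 290 counts, 2.99 (2.66 to 3.34) and 3.24 (2.86 to 3.66) higher. The first was nearly absent from Rev and IR6 and reached the minimum only through iso1a, so its direction was set by the choice. The second was among the 5 copies with the most counts in Rev and IR6.

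The jockey family, after which the group is named, came next, with 116 counts in Rev, 65 in IR6 and 536 in iso1a and ratios of 3.62 (3.33 to 3.93) and 4.17 (3.81 to 4.58). In Rev or IR6 26 jockey copies had counts and in iso1a 40, and 14 had counts in both, which was 53.8% of the former and 35.0% of the latter. Over all TE copies these shares were 53.0% and 63.9%. Copies that include the 3′ end held 27.6% of jockey counts in Rev and 21.5% in IR6 but 96.8% in iso1a, and such copies make up 87.0% of jockey bases. Near-full copies of jockey, those that span at least 90% of the longest span of the family, held 7, 2 and 162 counts, the last on 11 of 18 copies.

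The 4 jockey copies compared singly reached the minimum of 50 counts only through iso1a, so their direction was set by the choice and their values are a description. A fragment on 2R at 9468083 to 9468347 (minus strand, 265 bp, element bases 4760 to 5020) held 166 counts in iso1a and 0 in both other bodies, at least 148-fold higher than Rev and at least 122-fold higher than IR6 with 3 counts in place of 0. On 2L at 14618937 to 14619317 (minus strand, bases 4629 to 5020) a fragment held 1, 0 and 73 counts, 7.03 (5.08 to 12.93) above Rev and at least 53.5-fold above IR6. Near-full copies on 2L at 47514 to 52547 and at 20891618 to 20896634 held 54 and 63 counts in iso1a, 2 and 3 in Rev, and 0 in IR6. All 4 of these copies end at base 5020, the 3′ end of the element.

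Of the other families, G4 held 89, 60 and 335 counts, ratios of 3.32 and 3.61. Its leading copy, at 3LHet 1575601 to 1576089 (plus strand, bases 3363 to 3855), held 7, 0 and 97 counts, 5.12 (4.11 to 6.56) above Rev and at least 71.1-fold above IR6. This copy, too, reached the minimum only through iso1a. Doc, whose insertion is known as the cause of a classic white-eye allele, held 70, 58 and 174 counts, ratios of 2.72 and 2.71. Near-full Doc copies held 22, 18 and 113 of these counts, on 17 of 58 copies in iso1a. Fw3 stood at 3.29 and 2.74, and the smallest ratios of a higher family were those of the X-element, at 1.64 and 1.10, and BS, at 1.13 and 1.64. The F-element, with 44 counts in iso1a, stood at -0.76 (-1.27 to -0.29) to Rev and 0.28 (-0.29 to 0.82) to IR6. With 19 counts, baggins stood at -1.29 (-2.10 to -0.62) and -0.21 (-1.08 to 0.56), past 2-fold against Rev alone. Of their counts in Rev and IR6, 90.7% and 79.5% lay on copies without any in iso1a. The same share was 6.31% over all TE copies, 11.3% over all LINE copies and 0.684% for the I-element. The last 2 are lowered by the X pair, which had counts in iso1a and held 68.6% and 69.7% of LINE counts in Rev and IR6. Outside the pair the I-element held 158 and 138 counts in Rev and IR6, of which 46 together lay on copies without any in iso1a. Among the other families compared with iso1a the share went from 2.62% for Juan to 62.4% for jockey.

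Of 14 single copies compared, 10 were higher in iso1a, 2 were lower and 2 were within 2-fold, beside 83% and 10.9% of 1143 TE copies that were higher and lower. The 2 lower copies were the X pair. Since 8 of the 14 had under 50 counts in Rev and IR6 together and entered only through iso1a, nothing is read from the count of higher copies. They were the jockey copies, the I-element on 2R, the Juan fragment on chromosome 4, the G4 copy and the Doc2 copy below. Copies within 2-fold were the I-element on 3R and a BS fragment on X at 17037798 to 17037946 (plus strand, 149 bp), which held 103, 79 and 68 counts, 0.82 (0.35 to 1.27) and 0.92 (0.43 to 1.41). The BS fragment was the third copy by counts in Rev and in IR6. A near-full Doc2 copy on 2R at 440101 to 444819 held 10, 16 and 56 counts, 3.84 (2.92 to 5.04) and 2.91 (2.12 to 3.85) higher, and a G5A copy on X at 19560264 to 19560885 held 52, 35 and 96, 2.29 (1.80 to 2.82) and 2.58 (2.02 to 3.19) higher.

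How much of an element a copy retains was then compared with where the counts fell. Copies that span under 10% of the longest span of their family were 516 of the 1859 and 5.05% of the annotated bases. They held 76.3% of LINE counts in Rev, 77.1% in IR6 and 44.5% in iso1a. Without the X pair the shares were 24.6%, 24.5% and 44.4%. The 303 near-full copies were 16.3% of copies and 45.3% of bases and held 5.96% (5.35 to 6.61) of counts in Rev, 5.93% (5.20 to 6.73) in IR6 and 21.5% (20.0 to 23.0) in iso1a. Without the X pair these became 19.0%, 19.5% and 21.5%, so the gap between the lines in this share rested on the pair. The level of near-full copies, which do not include the pair, was 28.3, 23.1 and 147 CPM in Rev, IR6 and iso1a. On the log2 scale iso1a was 2.38 above Rev and 2.67 above IR6. The remaining copies without the pair were 2.15 and 2.49 higher in iso1a. In all 3 bodies the share of counts on near-full copies was thus below their share of bases. How reads that fit several copies were handled is not given, and its part in this was not tested. Low transcription of near-full copies is therefore not read from these shares.

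**Figure D4:**
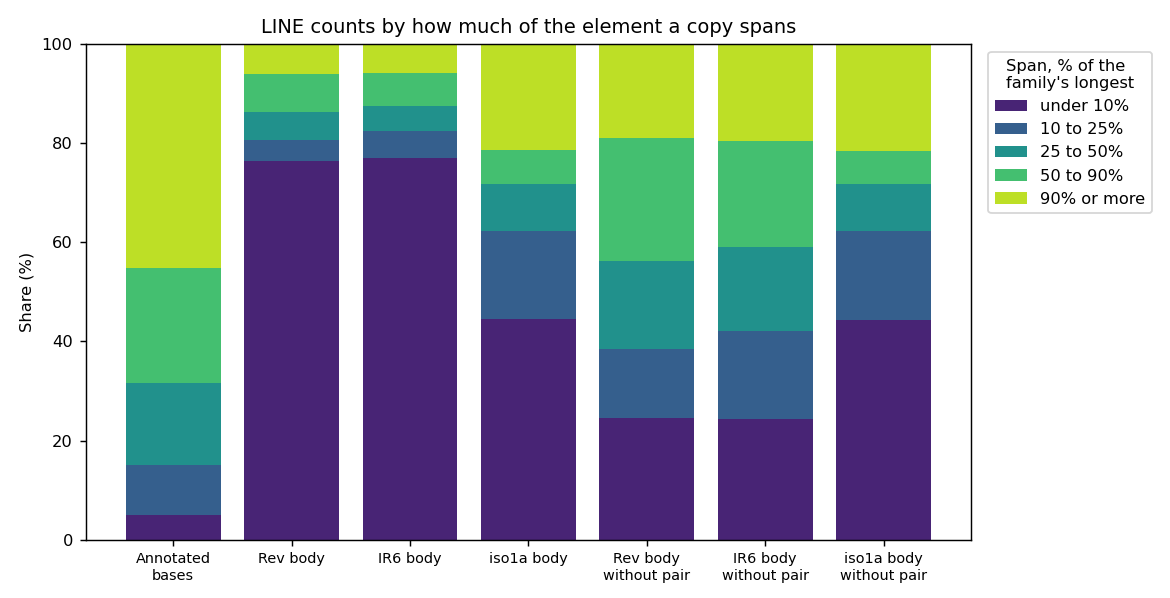
Percent of annotated bases and of LINE counts in each body, with and without the X pair, by how much of the longest span of its family a copy retains, in stacked bars that start at 0. With the pair, short copies hold most counts in Rev (76.3%) and IR6 (77.1%), while near-full copies make up 45.3% of bases but 5.96% and 5.93% of counts.

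Truncation at the 5′ end, the usual form of a LINE copy, was seen in the annotation, where 39.6% of copies include the 3′ end without the 5′ end, 10.9% the 5′ end alone, 13.4% both and 36.0% neither. Copies with the 3′ end alone make up 33.5% of bases, and without the X pair they held 42.5% of counts in Rev, 42.3% in IR6 and 44.0% in iso1a. Of the copies with counts in Rev, 198 (54.1%) also had counts in IR6, which was 61.3% of those of IR6, and 161 (44.0%) also had counts in iso1a, which was 49.5% of those of iso1a. Over all TE copies the shares were 65.9% and 73.6% between Rev and IR6, and 56.4% and 55.1% between Rev and iso1a. Low counts limit such overlaps, and no difference between LINE copies and other TE copies is read from them.

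Counts were also uneven along the genome. Sequence not placed on a chromosome holds 636 copies (34.2%) but 2.70%, 2.87% and 2.20% of LINE counts in Rev, IR6 and iso1a. Without the X pair these shares were 8.60%, 9.47% and 2.20%. Chromosome 4, with 31 copies (1.67%), held 1.08% and 0.824% of counts in Rev and IR6 but 16.1% in iso1a, 420 of whose 485 counts there were on the Juan fragment. Without the X pair its share was 3.44% in Rev, 2.72% in IR6 and 16.2% in iso1a. The 13 copies on Y heterochromatin held none in any library. A few copies decided most totals, and the 10 with the most counts held 77.6% in Rev, 78.9% in IR6 and 47.4% in iso1a. In Rev and IR6 the X pair alone held 68.6% and 69.7%.

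In the ovary, few LINE copies carried 5′ ends of transcripts. The Solexa library held 120 counts on 9 of the 1859 copies, in 6 families, and 95.8% of them on 5 copies. Among all 20953 TE copies, reads of that library were listed in full at 20 copies and in part at 99. TE copies in general thus rarely had counts there, and the low number is not read as a trait of LINEs. A G7 copy on X at 17139582 to 17140106 held 33, a Doc copy at 3LHet 601916 to 603964 held 28 and a near-full F-element on 3R at 10988331 to 10993025 held 25. The F-element copy had 0 counts in every body library, while the G7 copy held 3, 2 and 14 and the Doc copy 11, 9 and 18 in Rev, IR6 and iso1a. A G5 copy on 3L held 21 counts and a G3 copy on 2R held 8. Near-full copies made up 45.8% (36.7 to 55.2) of the Solexa counts, and 21.7% when length on the genome was used in place of the span on the element.

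By family, the Solexa library held 11.7 CPM for G7 (8.07 to 16.5), 10.3 for Doc (6.90 to 14.8), 9.60 for the F-element (6.32 to 14.0), 7.46 for G5 (4.62 to 11.4) and 2.84 for G3 (1.23 to 5.60), with 2 counts left on baggins. The intervals of the first 4 overlap, so their order is not settled at this depth. The I-element, which led by counts in Rev and IR6, was at 0 there, as were Juan and jockey, which led in the iso1a body. For each of them the interval reached up to 1.31 CPM. The pyrosequenced library held 7 counts on 6 copies: 2 on an X-element copy at 3RHet 196195 to 196372, and 1 each on Ivk, jockey, G2, BS3 and an X fragment of the I-element. No copy and no family had counts in both ovary libraries. At the Solexa level the pyrosequenced library would have held 4.69 counts in all, so differences between families were not detectable at its depth.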

How the data were processed

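Alignment used Bowtie, per the submitters' processing notes. What the sources used here do not give are its version, the genome build, how multiply mapping reads were handled and what the label normalization means. The deposited values are whole-number counts of reads, per annotated transcript for genes and per annotated copy for TEs, made by the authors and used unscaled. The assembly to which the coordinates belong was not named, so no gene context and no sequence were taken, and genes were matched to symbols only. The files list names of reads at TE copies of all families, but many lists are cut. In Rev, IR6 and the iso1a body the list was cut at 2825, 2379 and 2297 copies and complete at 2593, 2469 and 3255. Of the listed names, 0 in 4 libraries and 3 of 15080 in the iso1a body occurred on 2 chromosomes. Names at 2 or more TE copies were 192 of 8783 in Rev, 174 of 7767 in IR6 and 734 of 15080 in the iso1a body. How multiply mapping reads were handled is not read from these partial lists.

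A gene's value was the largest count among its transcripts, and the sum over genes was the library total. Rows that name no gene were left out (2, 0, 855, 473 and 1350 counts in the pyrosequenced, Solexa, Rev, IR6 and iso1a body libraries). Copies and families needed 50 counts in each pair of libraries. Ratios had 0.5 added to each count, with Clopper-Pearson intervals conditional on the sum. A copy includes the 5′ end when it starts within 100 bases of it and the 3′ end when it passes 95% of the farthest base. Intervals and floors of 3 counts cover counting error only. The functions were tested on simulated counts. Scaling factors were taken from edgeR 4.0.16 (TMM) and DESeq2 1.42.0 (median ratio) under R 4.3.3, and other steps used Python 3.11.15, numpy 2.4.6, pandas 2.3.3 and scipy 1.17.1.

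The members and lists were chosen with earlier results of these data known. Named families were the I-element, Doc, jockey and F-element, the 3 others highest by counts per library and the 3 largest called ratios. Named copies were the 3 highest by counts per library, the 5 largest called ratios in each direction and the longest of those 4 families. Further copies were named after their values were seen. The alternatives were other scalings, minimums and spans, and leaving out unplaced copies, overlapping copies or the copy with the most counts. Leaving out the X pair was chosen after the data were seen.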

Additional observations from a re-analysis of the deposited data

How the results depend on the processing

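No paired analysis was possible because each group has 1 library, and no replicate could be left out. A minimum of 20 counts gave 9 copies higher and 3 lower in Rev than in IR6, 1 family lower, and 30 copies higher in iso1a, while a minimum of 100 gave 0 copies lower in Rev and 5 higher in iso1a. With TMM and with median-ratio factors 1 family was higher and 1 lower in Rev, the LINE total was at 0.20 and 0.17, and with median-ratio factors 0 piRNA genes were higher. Without copies that overlap another TE copy 0 were lower in Rev, and near-full copies held 4.68% of counts in Rev, 3.36% in IR6 and 19.8% in iso1a. Their share was 7.04% and 6.94% in Rev and IR6 with a limit of 80%, and 3.85%, 4.97%, 17.8% and 21.7% in Rev, IR6, iso1a and Solexa with length on the genome. Without the X pair, an alternative chosen after the data were seen, 0 copies and 0 families were lower in iso1a, the smaller I-element ratio turned to 1.59, and near-full copies held 19.0% in Rev and 19.5% in IR6. In iso1a, BS (0.64 and 0.71), G3 (0.85 and 0.90) and the X-element (0.52 and 0.57) lost their calls with TMM and median-ratio factors. So did BS without overlapping copies (0.84), the X-element with gene totals summed over transcripts (1.00), and, without their copy with the most counts, Doc2 (0.85) and the X-element (0.23). Adding 1 to each count changed none of the counts of calls, and leaving out unplaced sequence changed 1 of them, with 11 in place of 12 families higher in iso1a.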

Other observations

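Copies with at least 20 counts in a library sometimes lay close together. There were 44 such copies, and 6 pairs of them were within 5000 bp of each other. On chromosome 4 the Juan fragment was followed after 1055 bp by a G5 copy at 135510 to 136321, which held 6, 6 and 42 counts in Rev, IR6 and iso1a, so both were highest in iso1a. In 3LHet the members of a pair went opposite ways between Rev and IR6, a Doc2 copy at 1205525 to 1206892 with 28, 0 and 3 counts and, after 4444 bp, the Fw2 copy with 22, 38 and 13. In 3RHet a jockey copy at 1944622 to 1945179, with 22, 10 and 0 counts, lay 640 bp from the Doc3 copy with 46, 21 and 4, and both were lowest in iso1a. After 3897 bp the Doc3 copy was followed by an F-element copy at 1954117 to 1955857 with 31, 7 and 0 counts. On 2R an Fw3 copy at 1366588 to 1367983, with 3, 3 and 23 counts, lay 165 bp from a G5 copy with 22, 6 and 14. The sixth pair was that of the I-element on X. A BS copy on 3L at 23204310 to 23206704 held 40 counts in Rev, 0 in IR6 and 2 in iso1a, at least 11.0-fold higher in Rev than in IR6. It had under 50 counts in the pair and was chosen after its values were seen.

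The longest copies of the named families held few or no counts. Length is that on the genome and exceeds the part of the element a copy spans, which was 5371, 4651, 4721 and 2077 bases in the order below. These were the I-element of 13687 bp and the F-element at 1266683 to 1275592, both on unplaced sequence and at 0 in every library, a Doc copy on 2L at 19345072 to 19357215 with 2 counts in iso1a, and a jockey copy on unplaced sequence at 1329196 to 1335624 with 2, 1 and 0 counts. All 4 overlap another TE copy.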
